A study of Mus musculus with 192 samples.

Results

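Carboxylesterases are enzymes that split ester bonds in drugs, toxic esters and stored lipids, and 10 of their genes were followed through 9 tissues of mice that had flown in space or stayed on the ground. The genes were Ces1c, Ces1d, Ces1e, Ces1f, Ces1g, Ces2a, Ces2c, Ces2e, Ces3a and Ces3b, taken from a list of names that was drawn up with earlier results of these data known. They are 10 of the 20 carboxylesterase genes and pseudogenes in a table of 54752 genes. By the labels all mice were C57BL/6 and 12 weeks old, and by the study's methods they were males on the C57BL/6J background. They were wild type (WT) or carried the germline Nrf2 deletion in every cell (Nrf2KO, here KO), and they were housed singly. Flight mice (FL) lived for about a month on the International Space Station and were dissected soon after the return to Earth, whereas ground control mice (GC) were kept later, in the same kind of cage, in Japan. Flight therefore cannot be told apart from the date and site of the experiment. The study's methods name a flight food for the flight mice and another feed for the ground mice, so food may differ too. They give 12 weeks as the age of the flight mice when ready for launch, so these mice were older at dissection. The KO mice had been screened by anaesthesia to leave out carriers of a liver shunt. The 4 groups, GC_WT, FL_WT, GC_KO and FL_KO, held 6 mice each in 7 of the tissues, and 3 each in mandibular bone (MdB) and kidney (Kid). The other tissues were liver (Liv), epididymal white fat (eWAT), interscapular brown fat (iBAT), temporal bone (TpB), spleen (Spl), thymus (Thy) and cerebrum (Cbr). Flight KO mouse 04, which had an intestinal hemorrhage, was left out, which left 5 mice in FL_KO (2 in MdB, 3 in Kid) and 184 of 192 samples. A number used in FL and in GC names 2 different mice. For groups of 6 mice the lowest, the median and the highest value are given below, in that order, and for FL_KO the values of mice 01, 02, 09, 11 and 12.

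Most carboxylesterases sit in the lumen of the endoplasmic reticulum of liver, kidney, gut and fat cells. The Ces1 enzymes prefer esters with a bulky acyl group. Ces1d and Ces1f are also known as triacylglycerol hydrolases, which release fatty acids from stored fat. The Ces2 enzymes prefer esters with a small acyl group. Nrf2, the product of Nfe2l2, is the transcription factor that induces detoxification enzymes under oxidative or electrophilic stress. In the liver, carboxylesterase genes are known to respond to the receptors Nr1i2 and Nr1i3, which sense foreign chemicals. The genes lie in a pair of clusters on chromosome 8, with Ces1 genes on the minus strand and Ces2 and Ces3 genes on the plus strand.

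The end of the protein decides where a carboxylesterase stays, and the last 30 coding bases before the stop codon are shown for the 3 kinds of end among the members. They were read from transcripts of GENCODE vM21 on GRCm38. The capitals mark the last 4 codons.
Ces1c: acagaccctactgaacacACAGAACACAAA
Ces1d: aggccatcccacagggaaCATGTTGAGCTC
Ces1g: aggtcatcccatagggaaCATGTTGAACTG
Ces2c: aaggcttctcaggacaagCACAGGGAGCTT
Ces3a: cagagaagcaggaaagttCCAGAGGAGCTC
Ces3b: cagagaagcaggaaagttCCAGAGGAGCTC
The coding sequences of 9 of the 10 members ended in codons for glutamate and leucine, the end of the signal that holds enzymes in the endoplasmic reticulum. Among the capitals, the first codon was for histidine in the other Ces1 and the Ces2 members. Ces1c, known as the secreted plasma esterase, had neither. Ces3a and Ces3b shared all 30 bases.

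The stretches of 250 bases before the gene start are shown for the 7 members that have an entry, to set genes that changed in liver beside each other. They come from RefSeq on GRCm38.p6 and run in the direction of the gene. The capitals mark TTATGTAA, a D-box of the circadian PAR bZIP factors, and TATAAA, the TATA box found near some start sites, on either strand. Both motifs were picked after the sequences had been seen, and they do not overlap each other here.
Ces1c, chr8:93131284-93131533, minus strand: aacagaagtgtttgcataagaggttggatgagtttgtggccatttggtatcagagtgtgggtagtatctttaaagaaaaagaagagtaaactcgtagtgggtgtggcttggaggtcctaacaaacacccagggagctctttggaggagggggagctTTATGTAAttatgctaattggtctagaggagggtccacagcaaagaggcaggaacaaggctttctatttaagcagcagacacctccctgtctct
Ces1e, chr8:93229620-93229869, minus strand: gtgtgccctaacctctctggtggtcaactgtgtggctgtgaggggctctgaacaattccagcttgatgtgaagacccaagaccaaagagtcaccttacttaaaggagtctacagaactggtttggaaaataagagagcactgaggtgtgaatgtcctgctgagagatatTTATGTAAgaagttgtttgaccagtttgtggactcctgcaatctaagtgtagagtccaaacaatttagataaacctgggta
Ces1g, chr8:93337210-93337459, minus strand: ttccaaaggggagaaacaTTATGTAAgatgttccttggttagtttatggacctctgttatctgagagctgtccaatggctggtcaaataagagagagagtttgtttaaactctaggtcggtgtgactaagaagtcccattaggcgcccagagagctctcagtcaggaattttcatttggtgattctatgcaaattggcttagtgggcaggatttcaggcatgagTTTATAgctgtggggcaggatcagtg
Ces2a, chr8:104733753-104734002, plus strand: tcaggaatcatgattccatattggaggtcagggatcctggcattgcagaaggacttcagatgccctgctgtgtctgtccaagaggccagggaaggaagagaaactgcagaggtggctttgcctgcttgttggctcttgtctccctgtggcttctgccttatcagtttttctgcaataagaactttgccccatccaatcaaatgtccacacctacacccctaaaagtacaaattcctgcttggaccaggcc
Ces2c, chr8:104846818-104847067, plus strand: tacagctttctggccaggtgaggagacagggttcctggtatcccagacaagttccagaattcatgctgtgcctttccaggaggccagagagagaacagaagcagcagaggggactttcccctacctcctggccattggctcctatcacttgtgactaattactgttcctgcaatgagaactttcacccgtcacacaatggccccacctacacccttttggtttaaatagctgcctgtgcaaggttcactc
Ces2e, chr8:104926010-104926259, plus strand: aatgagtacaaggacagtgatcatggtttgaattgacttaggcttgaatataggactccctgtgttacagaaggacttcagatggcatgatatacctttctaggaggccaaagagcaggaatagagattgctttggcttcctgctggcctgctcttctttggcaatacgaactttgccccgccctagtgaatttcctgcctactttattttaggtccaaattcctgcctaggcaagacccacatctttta
Ces3b, chr8:105083505-105083754, plus strand: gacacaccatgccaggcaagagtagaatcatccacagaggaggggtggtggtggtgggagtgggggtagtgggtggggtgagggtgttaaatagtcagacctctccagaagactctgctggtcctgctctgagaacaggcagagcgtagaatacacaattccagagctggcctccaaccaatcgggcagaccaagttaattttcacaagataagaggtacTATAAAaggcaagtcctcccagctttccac
The search covered these 7 members, over 250 bases before and 50 after the start, and Ces1d, Ces1f and Ces3a had none. The D-box stood in Ces1c, Ces1e and Ces1g, which is 3 of 7 windows, against 0.9% of 32851 windows of all genes. Its first base lay 94 bases before the start in Ces1c, 81 in Ces1e and 232 in Ces1g. The RefSeq start of Ces1g lies inside the GENCODE span of the gene, so part of its window is transcribed there. TATAAA stood in Ces1g, on the other strand, and in Ces3b, with 13.6% of all windows holding it. The core of the antioxidant response element that Nrf2 binds, TGACNNNGC, was in 0 of 7 windows and in 12.4% of all. A site of the liver factor HNF4, CAAAGTCCA, was in 0 of 7 and in 0.5% of all. These are matches of letters in a short window, and nothing follows from their presence or absence about the factors. The D-box was picked from these windows and stood in Ces1 genes that are related in sequence. Its 3 of 7 windows against 0.9% is therefore no test.

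Each library held 13110700 to 16308200 expected counts, and Thy libraries 8007520 to 10564700 expected counts, where total RNA depleted of ribosomal RNA was used instead of poly(A) RNA. Nfe2l2 itself was lower in KO mice in all 9 tissues, at 28.2% to 49.1% of the WT level in 8 tissues and at 83.6% and 84.0% in Spl, and every one of these differences was called. The marker lists of the labelled tissues were present, with all 5 hepatocyte markers in Liv, all 5 nephron markers in Kid and all 5 adipocyte markers in eWAT. The libraries labelled cerebrum had 4 of 4 cerebral markers, and Pcp2 and Gabra6 of the cerebellum had a median of 0 TPM. Of 90 pairs of member and tissue, 42 passed the filter on low counts, namely 10 in Liv, 6 in Kid, 5 in eWAT, 4 each in iBAT, TpB, MdB, Spl and Thy, and 1 in Cbr. The other 48 did not, and their levels are given below as ranges. Levels are in TPM, a share of all transcripts that is scaled by transcript length and so can be compared between genes. Fold changes are log2 ± SE from a quasi-likelihood fit of the counts in edgeR, and a change was called at an adjusted p under 0.05 over all genes of a tissue. The groups are whole tissues, in which fewer cells of a type and less RNA per cell cannot be told apart.

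In GC_WT mice the 10 genes fell into a small number of tissue patterns. Liver held the most carboxylesterase RNA, 4726 ± 249 TPM over the 20 genes (SD, n = 6), of which Ces1c made up 31.9%, Ces3a 26.8% and Ces1d 13.8%. In Kid the sum was 1239 ± 81.8 TPM (n = 3), with 50.3% from Ces1f, 20.5% from Ces2c and 20.0% from Ces1d. Fat was almost wholly Ces1d and Ces1f, which made up 84.5% and 14.8% of 1692 ± 344 TPM in eWAT and 93.0% and 6.86% of 645 ± 96.4 TPM in iBAT (n = 6 each).

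**Figure D1:**
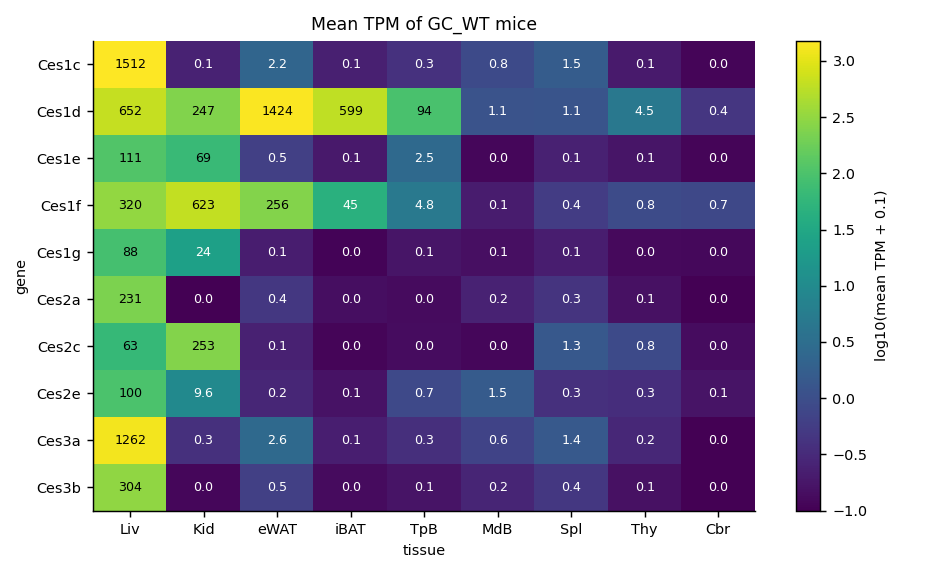
Mean TPM of the 10 members in the 9 tissues of GC_WT mice (n = 6, or 3 in Kid and MdB), with the colour on a log10 scale of mean TPM + 0.1. Liver is the highest tissue of 7 of the 10 genes, Ces1d is highest in eWAT, and Ces1f and Ces2c are highest in kidney.

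Ces1c, Ces3a, Ces3b and Ces2a were genes of the liver. Ces1c, the plasma esterase, had a mean of 1512 TPM in Liv and 2.17 in the next tissue, eWAT. Ces3a had 1262 TPM in Liv and 2.57 in eWAT, Ces3b 304 and 0.528, and Ces2a, an esterase of small acyl groups, 231 and 0.368. The ranges of Liv and the next tissue did not overlap for any of these genes.

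Ces1e, Ces1g and Ces2e were highest in Liv and next in Kid. Ces1e, also known as egasyn, which anchors β-glucuronidase in the endoplasmic reticulum, had 111 TPM in Liv and 68.6 in Kid. Ces1g, an esterase tied to lipid handling in liver, had 87.8 and 23.7. Ces2e had 99.8 and 9.61. In each case the mice of Liv and Kid did not overlap.

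Ces1f and Ces2c were highest in Kid and next in Liv. Ces1f had 623 TPM in Kid and 320.2 in Liv, which overlapped with the 256 of eWAT, followed by 45.3 in iBAT and 4.82 in TpB. Ces2c had 253 TPM in Kid, 62.9 in Liv and 1.33 in Spl. Ces1d was the widest in range, with 1424 TPM in eWAT, 652 in Liv, 599 in iBAT, 247 in Kid, 94.5 in TpB and 4.53 in Thy. Only Liv and iBAT overlapped among these 6 tissues, and Ces1d was at 1.13 or below on average in Spl, MdB and Cbr.

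Outside the liver, Ces1c and Ces3a went with albumin, the defining hepatocyte transcript. Per 1000 TPM of Alb, the liver libraries had 22.6 to 41.9 TPM of Ces1c (median 31.6, n = 23). The 14 libraries of other tissues with at least 50 TPM of Alb had 23.7 to 43.8 (median 30.8). For Ces3a the same ratio was 21.8 to 39.4 in Liv and 20.5 to 64.3 in the other tissues. The 147 libraries of other tissues with less Alb had at most 1.89 TPM of Ces1c and 2.41 of Ces3a. Among the eWAT libraries with 12.4 to 23.9 TPM of Alb, most had 0 to 0.07 of Ces1c, under that ratio, while those of FL_WT mice 08 and 10 had 0.39 beside 17.5 and 19.8 TPM of Alb. The highest value of Ces1c outside Liv, 15.7 TPM in the eWAT of GC_KO mouse 09, stood beside 613 TPM of Alb. How the Alb transcripts came into these libraries was not tested, and levels of Ces1c and Ces3a outside Liv are therefore given with those of Alb.

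**Figure D2:**
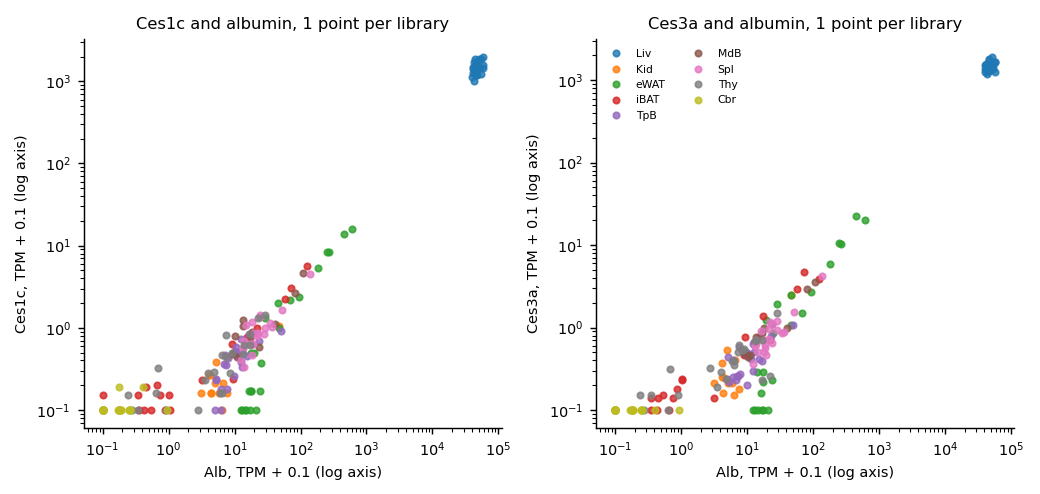
TPM of Ces1c (left) and Ces3a (right) against TPM of Alb, both as TPM + 0.1 on log axes, with 1 point per library of the 184 used, coloured by tissue. The libraries of other tissues with 50 TPM of Alb or more held about as much Ces1c per Alb as liver, with medians of 30.8 and 31.6 TPM per 1000 TPM of Alb, and some eWAT libraries lie near the floor of Ces1c at lower Alb.

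Part of the family was lower in the livers of KO mice, and Ces1g by the most among the 10. Of the 10 members tested in Liv, 4 were lower and 0 higher in GC_KO than in GC_WT mice, and 6 were lower and 0 higher in FL_KO than in FL_WT mice. Over all genes tested in Liv, 2.64% and 3.65% were called in these comparisons, and 1.7% and 2.29% were called as lower. The median of the 10 log2 fold changes was −0.50 in GC mice and −0.62 in FL mice, against 0.01 over all genes in both. These 2 comparisons share no mice, but they come from a single fit with a shared estimate of the spread. The members were listed with earlier results of these data known, so the excess over all genes is no independent support.

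Ces1g had 64.0, 89.0 and 117 TPM as lowest, median and highest value in the livers of GC_WT mice, and 72.2, 78.8 and 112 in FL_WT mice. In GC_KO livers it had 4.42, 5.08 and 8.79 TPM, and in the 5 FL_KO livers 7.41, 9.11, 3.53, 3.35 and 2.40. Every KO liver was far under every WT liver. The log2 fold change was −3.97 ± 0.29 in GC mice (adjusted p = 1.67e-09) and −4.12 ± 0.32 in FL mice (adjusted p = 5.28e-09), or 6.38% and 5.74% of the WT level on counts.

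Ces2c, which hydrolyses esters of small acyl groups and glycerides, had 19.6, 73.7 and 76.2 TPM in GC_WT livers and 16.5, 30.2 and 62.0 in FL_WT livers. In GC_KO livers the values were 11.2, 14.5 and 19.7 TPM, and in FL_KO livers 7.49, 7.03, 3.07, 8.74 and 1.87. The low GC_WT value, of mouse 08, lay just under the top of the GC_KO range, so that these groups overlapped at 1 mouse, whereas the FL groups did not overlap. The fold change was −2.13 ± 0.38 in GC mice (adjusted p = 0.00106), or −2.33 without GC_WT mouse 08, and −2.64 ± 0.42 in FL mice (adjusted p = 0.000389).

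Ces1f, a triacylglycerol hydrolase, had 289, 303 and 413 TPM in GC_WT livers and 354, 371 and 411 in FL_WT livers. In GC_KO livers it had 132, 157 and 208 TPM and in FL_KO livers 225, 230.3, 97.3, 91.9 and 98.0. No KO liver reached a WT liver. Its fold change was −0.98 ± 0.21 in GC mice (adjusted p = 0.00762) and −1.40 ± 0.22 in FL mice (adjusted p = 0.00035).

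Ces1c changed least among the genes called. It had 1293, 1423 and 1971 TPM in GC_WT livers, 1503, 1789 and 1880 in FL_WT, 1012, 1196 and 1279 in GC_KO, and 1584, 1467, 1399, 1214 and 1451 in FL_KO. The GC groups did not overlap, by a narrow margin, and the FL groups did. The fold change was −0.37 ± 0.08 (adjusted p = 0.00855) in GC mice and −0.39 ± 0.08 (adjusted p = 0.00895) in FL mice, and the latter missed the threshold by limma on TPM and in a fit of the 2 groups alone, with adjusted p up to 0.0717.

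Ces1e and Ces2e were called as lower in FL mice. Ces1e had 95.1, 110.3 and 128 TPM in FL_WT livers and 86.5, 98.1, 48.2, 48.7 and 55.8 in FL_KO, with an overlap of 1 mouse, at −0.80 ± 0.18 (adjusted p = 0.0111, and 0.0857 in a fit of these groups alone). In GC mice it was 101.4, 107 and 134 TPM in WT against 61.2, 70.9 and 90.3 in KO, without overlap, at −0.61 ± 0.17 with an adjusted p of 0.0591. DESeq2 (adjusted p = 0.0185), limma and the fit of 2 groups called it there. Ces2e was 81.5, 96.9 and 118 TPM in FL_WT and 86.0, 64.2, 55.2, 61.9 and 50.8 in FL_KO, also with an overlap of 1 mouse, at −0.70 ± 0.16 (adjusted p = 0.0121). In GC mice it was 70.7, 98.0 and 123.4 TPM in WT against 69.2, 71.7 and 83.9 in KO, at −0.46 ± 0.15 (adjusted p = 0.125), or 0.0173 without GC_WT mouse 08. Whether the genotype effect differed between GC and FL mice was tested as an interaction, and 0 of the 10 members passed. Over all genes and the 9 tissues together, 0% of 140842 interaction tests were called.

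Ces1d, the larger of the triacylglycerol hydrolases by level, was not called for genotype in Liv. It had 603, 652 and 696 TPM in GC_WT livers and 378, 436 and 598 in GC_KO, which did not overlap, at −0.55 ± 0.21 (adjusted p = 0.227, and 0.00674 in a fit of these groups alone). FL_WT livers had 722, 763 and 847 TPM, and FL_KO livers 912, 795, 409, 274 and 406. FL_KO mouse 01 stood above the FL_WT livers, mouse 02 within their range and mice 09, 11 and 12 far under them, so that the spread was wide and the fold change was −0.54 ± 0.22 (adjusted p = 0.211). Without FL_KO mouse 01 it was −0.81 with an adjusted p of 0.027. The same mice 01 and 02 were the highest of FL_KO for Ces1e, Ces1f and Ces1g.

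Ces2a was lower in KO livers in both settings without being called, at −0.42 ± 0.12 (adjusted p = 0.0619) in GC mice, where DESeq2, limma and the fit of 2 groups called it, and −0.37 ± 0.13 (adjusted p = 0.111) in FL mice. Ces3b was at 0.01 ± 0.13 and −0.10 ± 0.14, and Ces3a at 0.17 ± 0.07 and 0.12 ± 0.08, with adjusted p between 0.294 and 0.987 on counts for the pair. Limma on log2(TPM + 1) called Ces3a as higher in KO livers, at 0.19 (adjusted p = 0.0424) and 0.21 (adjusted p = 0.0234).

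**Figure D3:**
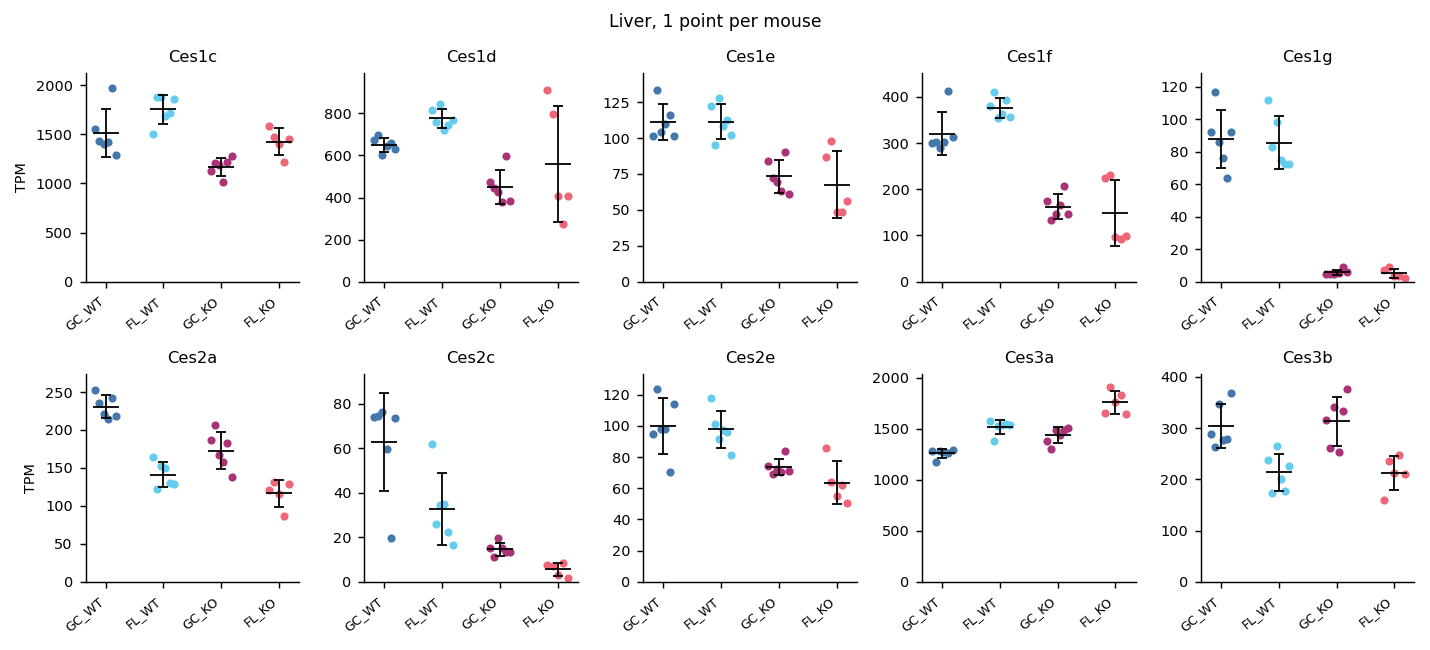
TPM of the 10 members in liver, with 1 point per mouse, the mean as a horizontal line and the SD as bars, for GC_WT, FL_WT and GC_KO (n = 6 each) and FL_KO (n = 5). Ces1g is at 64.0 TPM or more in each WT liver and at 9.11 or less in each KO liver, and Ces2a and Ces3b lie lower in FL than in GC mice of both genotypes.

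Flight was linked to lower Ces2a and Ces3b in the livers of both genotypes. Of 10 members, 2 were lower and 0 higher in FL_WT than in GC_WT mice, and 3 were lower and 0 higher in FL_KO than in GC_KO mice. Of all genes in Liv, 3.45% and 3.34% were called in these comparisons. The median of the 10 log2 fold changes was −0.07 in WT and −0.25 in KO mice, against 0.00 and 0.01 over all genes.

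Ces2a had 214, 228 and 253 TPM in GC_WT livers and 122, 139.9 and 165 in FL_WT livers. In KO mice it had 138, 175 and 206 TPM on the ground and 121, 131, 116, 86.7 and 129 after flight. Flight and ground livers did not overlap in either genotype. On counts Ces2a stood at −0.76 ± 0.12 (adjusted p = 0.00115) in WT and −0.71 ± 0.13 (adjusted p = 0.0021) in KO mice, or 59.0% and 61.0% of the ground level, and each alternative fit called both.

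Ces3b had 264, 283 and 368 TPM in GC_WT livers and 174, 213 and 266 in FL_WT livers, which overlapped at 1 mouse. In KO mice it had 254, 324 and 376 TPM on the ground and 160.5, 235, 212, 248 and 209.6 after flight, without overlap. The fold changes were −0.59 ± 0.13 (adjusted p = 0.0156) and −0.70 ± 0.14 (adjusted p = 0.00574), and each alternative fit called both.

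Ces2c fell in FL_KO against GC_KO livers, by the values given above, at −1.51 ± 0.42 (adjusted p = 0.046). The call was lost without FL_KO mouse 01, 02, 09 or 12, with no filter on low counts, in the fit of 2 groups and with mouse 04 included, with adjusted p up to 0.118. In WT mice it was −1.0 ± 0.36 with an adjusted p of 0.137, and −1.20 with an adjusted p of 0.0497 without GC_WT mouse 08. The difference of the flight effects was −0.51 ± 0.54 and was not called.

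Ces3a went the other way from its close relative Ces3b in TPM. It had 1175, 1278 and 1297 TPM in GC_WT livers, 1378, 1539 and 1576 in FL_WT, 1303, 1466 and 1512 in GC_KO, and 1658, 1908, 1761, 1828 and 1642 in FL_KO. Flight and ground livers did not overlap in either genotype. On counts it was at 0.20 ± 0.07 in WT (adjusted p = 0.143) and 0.15 ± 0.08 in KO mice (adjusted p = 0.373), while limma on log2(TPM + 1) called 0.27 (adjusted p = 0.00243) and 0.29 (adjusted p = 0.0013). The median log2 difference of all genes on that TPM scale was 0.08 in WT and 0.15 in KO mice, so the values relative to it are smaller.

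The remaining 6 members were not called for flight in Liv. Their log2 fold changes were 0.16 and 0.14 for Ces1c, 0.19 and 0.20 for Ces1d, −0.05 and −0.25 for Ces1e, 0.18 and −0.24 for Ces1f, −0.10 and −0.25 for Ces1g, and −0.10 and −0.34 for Ces2e, in WT and KO mice. All 5 hepatocyte markers were present in each group, and their summed TPM was 61499 to 80157 in GC_WT, 65534 to 83358 in FL_WT, 60806 to 75303 in GC_KO and 67960 to 85929 in FL_KO. A list of 4 small intestine markers summed to 94.4 to 130.3 TPM in GC_WT livers, 789 to 1710.2 in FL_WT, 83.6 to 95.9 in GC_KO and 566 to 926 in FL_KO. In these livers Sis was at 0 and Vil1 at 0.55 TPM or less, while Fabp2 and Apoa4, which liver also makes, carried the sum. Their part in the results was not tested.

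In kidney, Nrf2 deletion went with less Ces2c, by nearly the same amount with and without flight. Of the 6 members tested, 2 were lower and 0 higher in GC_KO than in GC_WT mice, and 1 was lower and 0 higher in FL_KO than in FL_WT mice, where 1.61% and 1.83% of all genes were called. Ces2c had 270.2, 233 and 258 TPM in GC_WT kidneys, 237, 267 and 254 in FL_WT, 127, 139 and 132 in GC_KO and 123.1, 138 and 129 in FL_KO mice 01, 02 and 11. Every KO kidney was under every WT kidney. The fold changes were −0.95 ± 0.08 (adjusted p = 2.67e-05) and −0.97 ± 0.08 (adjusted p = 2.19e-05), at 51.9% and 51.2% of the WT level. Flight moved Ces2c by −0.08 ± 0.08 in WT and −0.10 ± 0.08 in KO kidneys, which was not called.

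Ces1g was lower in GC_KO kidneys too. It had 21.6, 17.5 and 32.1 TPM in GC_WT, 9.37, 9.34 and 7.07 in FL_WT, 4.97, 4.25 and 7.44 in GC_KO, and 8.52, 8.75 and 4.92 in FL_KO mice. The GC_WT kidneys stood above all others, and the other 3 groups overlapped. The fold change between genotypes was −2.11 ± 0.28 in GC mice (adjusted p = 0.000985) and −0.21 ± 0.28 in FL mice (adjusted p = 0.794).

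The flight effect on Ces1g in WT kidneys was −1.54 ± 0.26 with an adjusted p of 0.0513, while DESeq2 (4.9e-06), the fit with no filter on low counts (6.61e-05) and the fit of 2 groups (0.017) called it. Only 0.119% of all genes were called there. In KO kidneys Ces1g was at 0.36 ± 0.29. The difference of both flight effects was 1.90 ± 0.39, with an unadjusted p of 0.000316 and an adjusted p of 0.9997 by edgeR. DESeq2 gave an adjusted p of 0.00397, where 0.0198% of genes were called, and edgeR with no filter gave 0.00899. Limma on log2(TPM + 1) gave 0.9999, so the tools differ for this gene, with 3 mice per group. Over all 9 tissues, edgeR called 0% of 140842 interaction tests.

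The other kidney members were not called on counts. Ces1f, the most abundant, had 661, 566 and 642 TPM in GC_WT, 695, 789 and 653 in FL_WT, 547, 507 and 518 in GC_KO and 643, 779.8 and 604 in FL_KO kidneys. The genotype fold change was −0.26 ± 0.11 in GC mice (adjusted p = 0.405), although these groups did not overlap, and −0.08 ± 0.11 in FL mice. Ces1d had 246, 244 and 253 TPM in GC_WT, 314, 336 and 313 in FL_WT, 278, 168 and 231 in GC_KO and 391, 350.4 and 298 in FL_KO. FL against GC kidneys stood at 0.30 ± 0.15 (adjusted p = 0.788) in WT and 0.56 ± 0.15 (adjusted p = 0.166) in KO mice. The latter was called by DESeq2 (adjusted p = 0.024), with no filter (0.0285) and without FL_KO mouse 11 (0.0315), against 0.159% of all genes called in this comparison.

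Ces1e lay between 61.5 and 83.5 TPM in all 12 kidneys and Ces2e between 5.57 and 12.2. Ces1c, Ces2a, Ces3a and Ces3b did not pass the filter in Kid.

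**Figure D4:**
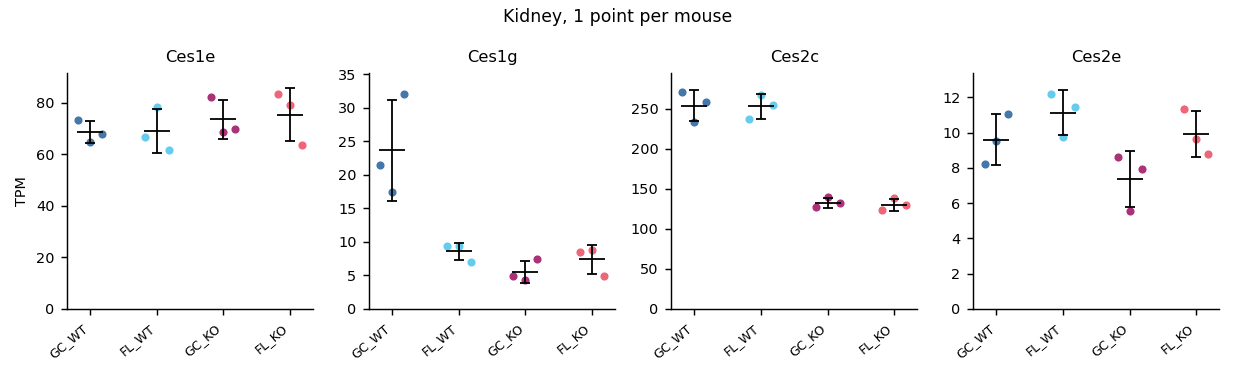
TPM of Ces1e, Ces1g, Ces2c and Ces2e in kidney, with 1 point per mouse, the mean as a line and the SD as bars (n = 3 per group). Ces2c is at 233 TPM or more in WT and at 139 or less in KO kidneys, and Ces1g is at 17.5 TPM or more in GC_WT and at 9.37 or less in the other groups.

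In white fat, Nrf2 deletion went with less Ces1f and, on the ground, less Ces1d. Both were lower in GC_KO than in GC_WT mice and Ces1f was lower in FL_KO than in FL_WT mice, of 5 members tested, where 2.74% and 1.06% of all genes were called. Ces1f had 139, 232 and 407 TPM in GC_WT, 97.5, 143 and 240.1 in FL_WT, 31.9, 50.4 and 67.2 in GC_KO, and 58.5, 52.1, 72.7, 63.2 and 56.9 in FL_KO. Every KO mouse was under every WT mouse. On the log2 scale this was −2.46 ± 0.26 (adjusted p = 1.8e-06) and −1.32 ± 0.27 (adjusted p = 0.0105).

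Ces1f was also lower in FL_WT than in GC_WT mice, at −0.88 ± 0.25 (adjusted p = 0.0207, and 0.0542 in a fit of these groups alone), with overlap between them. In KO mice it was at 0.26 ± 0.26, and the difference of both flight effects, 1.13 ± 0.36, had an adjusted p of 0.402. Of all genes in eWAT, 13.4% were called between FL_WT and GC_WT and 7.71% between FL_KO and GC_KO.

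Ces1d had 1073, 1458 and 1712 TPM in GC_WT, 840.0, 1160.3 and 1491 in FL_WT, 728, 999 and 1161 in GC_KO, and 1090, 1268, 1258, 1092 and 1164 in FL_KO. Only GC_WT stood higher, and it overlapped with the others. The genotype fold change in GC mice was −0.64 ± 0.15 (adjusted p = 0.0197, and 0.0673 in a fit of these groups alone) and 0.01 ± 0.16 in FL mice. Flight in WT mice was at −0.41 ± 0.15 (adjusted p = 0.074, and 0.0474 by DESeq2). The summed TPM of 5 adipocyte markers was 35032 to 44267 in GC_WT, 39971.5 to 49718 in FL_WT, 27939 to 37978 in GC_KO and 41765 to 44547 in FL_KO. The median was lowest in GC_KO mice. A list of 5 hepatocyte markers summed in eWAT to 5129.9 to 10546 TPM in GC_WT, 1289.6 to 3678 in FL_WT, 3862 to 7088 in GC_KO and 1822 to 3243 in FL_KO, lower in each FL than in each GC mouse. Cyp2e1, which fat also makes, carried that sum with 1245 to 10479 TPM, and Alb had 12.4 to 613. The sum of 8 skeletal muscle markers was 132 to 465.6 TPM in GC_WT, 30.04 to 275 in FL_WT, 44.8 to 307 in GC_KO and 54.7 to 208 in FL_KO. The part of these lists in the changes of Ces1d and Ces1f was not tested.

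**Figure D5:**
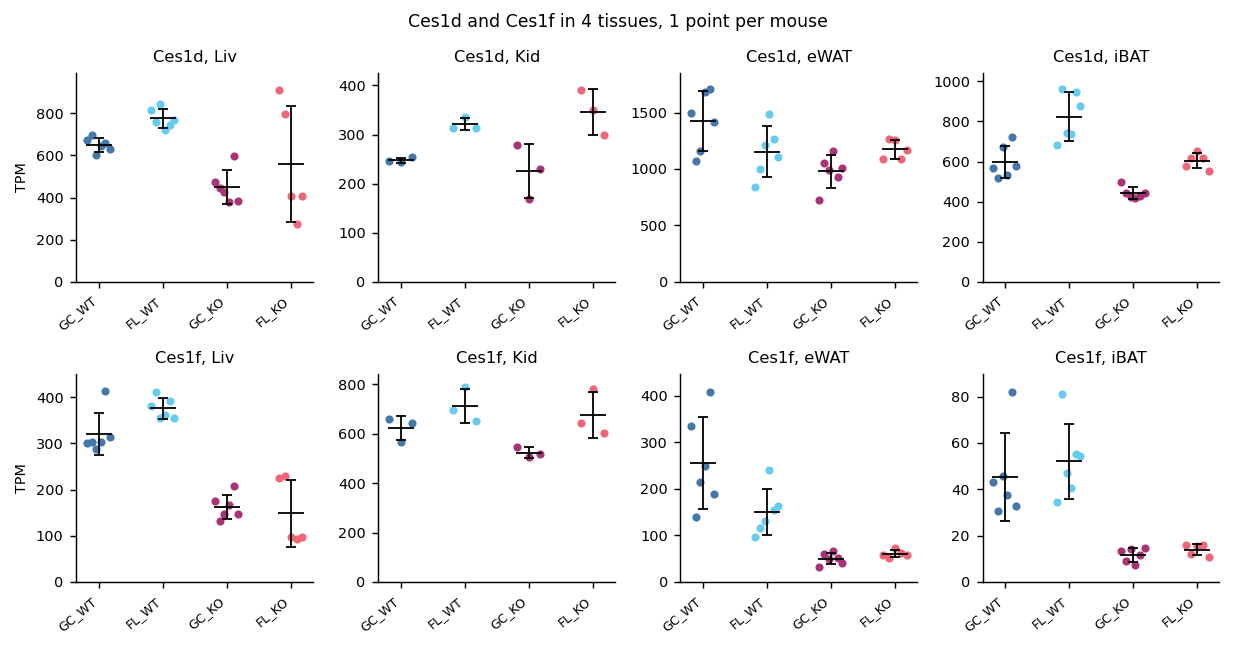
TPM of Ces1d (top) and Ces1f (bottom) in liver, kidney, eWAT and iBAT, with 1 point per mouse, the mean as a line and the SD as bars (n = 6 per group, 5 in FL_KO and 3 in kidney). Ces1f lies under the WT range in each KO mouse of liver, eWAT and iBAT, whereas the KO and WT mice overlap in kidney.

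Brown fat gave the same order of genotypes. Ces1d and Ces1f were the 2 of 4 members tested that were lower in KO mice, in GC and in FL mice alike, where 2.14% and 1.5% of all genes were called. Ces1f had 30.6, 40.5 and 81.9 TPM in GC_WT, 34.7, 50.7 and 81.0 in FL_WT, 7.32, 12.6 and 14.8 in GC_KO, and 15.8, 11.9, 15.6, 15.8 and 10.6 in FL_KO, without overlap of WT and KO. The fold changes were −1.85 ± 0.22 (adjusted p = 8.04e-06) and −1.93 ± 0.23 (adjusted p = 1.57e-05).

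Ces1d had 519, 574 and 720.1 TPM in GC_WT, 682, 808 and 964 in FL_WT, 419, 435 and 497 in GC_KO, and 578, 616, 655, 616 and 555 in FL_KO. WT and KO did not overlap in either setting, and the fold changes were −0.36 ± 0.08 (adjusted p = 0.021) and −0.48 ± 0.09 (adjusted p = 0.00272, and 0.0736 in a fit of these groups alone). In iBAT the 5 adipocyte markers summed to 10386 to 13228 TPM in GC_WT and 8806 to 10469 in GC_KO, and to 10786 to 16289.8 in FL_WT and 9919 to 13285 in FL_KO. The median was lower in KO mice in both settings, with overlap. The 3 brown adipocyte markers summed to 4249 to 4733 TPM in GC_WT, 4616 to 6660.3 in FL_WT, 3334 to 4745 in GC_KO and 3192 to 6713 in FL_KO. The part of either list in the lower Ces1d and Ces1f was not tested.

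Ces1d in iBAT shows how the scale decides a flight call. Its mean TPM was 824 in FL_WT against 599 in GC_WT and 604 in FL_KO against 442 in GC_KO, and limma on log2(TPM + 1) called both, at 0.46 (adjusted p = 0.000229) and 0.45 (adjusted p = 0.000228). On counts the changes were 0.15 ± 0.08 (adjusted p = 0.208) and 0.02 ± 0.09 (adjusted p = 0.855). In TPM the median over all genes shifted by 0.31 in WT and 0.43 in KO mice, which is most of what Ces1d moved by. Of all genes in iBAT, 19.2% and 33.5% were called for flight. The sum of 8 skeletal muscle markers was 6595 TPM at its highest in FL_WT and 8107 in FL_KO, against at most 69.2 in the GC groups, and its part in these results was not tested.

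In Thy, members were at low levels and the calls were small in TPM. Ces1f had 0.32, 0.80 and 1.41 TPM in GC_WT and 0.12, 0.325 and 0.45 in GC_KO, at −1.32 ± 0.32 (adjusted p = 0.0209), where 3.81% of all genes were called. In FL_KO it had 0.62, 0.69, 0.65, 0.86 and 0.58, above each GC_KO thymus, at 0.92 ± 0.35 (adjusted p = 0.0417), but the call was lost by DESeq2, with no filter, with the mouse number as a block, and without FL_KO mouse 02, 09, 11 or 12. Ces2c had 0.40, 0.515 and 0.71 TPM in GC_KO and 2.29, 1.35, 1.86, 1.06 and 0.81 in FL_KO, without overlap, at 1.15 ± 0.28 (adjusted p = 0.00253). In this comparison 38.2% of all genes were called, 22.8% were called between FL_WT and GC_WT, and 2.64% between FL_KO and FL_WT, where 0 of 4 members were called.

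Ces1c was called as higher in FL_WT than in GC_WT thymus, at 2.48 ± 0.73 (adjusted p = 0.0168). It had 0, 0.025 and 0.38 TPM in GC_WT and 0.18, 0.56 and 1.33 in FL_WT, and Alb had 0.14 to 13.5 TPM in GC_WT and 6.41 to 28.8 in FL_WT. The groups overlapped for both genes. No GC_WT thymus held more than 6.68 expected counts of Ces1c, while FL_WT mice 03 and 05 held 20.61 and 18.25. Ces1c passed the filter on low counts through libraries of the other groups, so the call leans on the group where it was high. DESeq2 gave Ces1c no adjusted p. Ces1d, the highest member here, had 2.48, 4.41 and 6.85 TPM in GC_WT and 5.83, 7.18 and 8.61 in FL_WT, and was not called. The 5 adipocyte markers summed in Thy to 44.1 to 73.5 TPM in GC_WT and 80.3 to 119.6 in FL_WT, without overlap, and to 28.2 to 67.3 in GC_KO and 48.0 to 116 in FL_KO. Their part in the levels of Ces1d and Ces1f there was not tested.

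In TpB, MdB, Spl and Cbr, 0 of the 13 pairs tested were called in any comparison, where 0.454% of all tests were called over these 4 tissues and 4 comparisons. Ces1d in TpB had 65.7, 84.5 and 131 TPM in GC_WT, 48.3, 58.7 and 105 in FL_WT, 30.8, 61.3 and 149 in GC_KO and 35.7, 64.8, 72.0, 39.7 and 39.1 in FL_KO, with wide overlap. Ces1f in TpB had 2.28, 4.02 and 8.73 TPM in GC_WT and 0.22, 0.88 and 3.35 in GC_KO, at −1.70 ± 0.66 with an unadjusted p of 0.018 and an adjusted p of 0.999. Adipocyte markers in these TpB libraries summed to 339 to 964 TPM in GC_WT and 11.01 to 1131 in GC_KO, and their part was not tested. Ces1c and Ces3a had unadjusted p under 0.05 in MdB and Spl, at 1.78 ± 0.59 and 1.956 ± 0.62 for flight in WT mandible and −1.19 ± 0.45 and −1.27 ± 0.43 in WT spleen, with adjusted p of 0.117 or more. Alb had 110.03 TPM in 1 FL_WT mandible and 137 in 1 GC_WT spleen. The other members tested there had a group mean of 2.54 TPM or less, namely Ces1e and Ces2e in TpB, Ces1d and Ces2e in MdB, Ces1d and Ces2c in Spl and Ces1f in Cbr.

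Over all 42 pairs, 11 were called between GC_KO and GC_WT and 10 between FL_KO and FL_WT, all as lower. For flight, 4 pairs were called in WT mice, 1 as higher and 3 as lower, and 5 in KO mice, 2 as higher and 3 as lower. The pair that was higher in WT mice was Ces1c in Thy, at low counts. Over all genes and the 9 tissues together, 1.65% and 1.35% of tests were called for genotype in GC and FL mice and 6.55% and 8.91% for flight in WT and KO mice, and for flight the share reached 38.2% in the thymus of KO mice. Ces1f was the member called in the most tissues, lower in GC_KO than in GC_WT mice in Liv, eWAT, iBAT and Thy.

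Reads of near copies can be split in error, so the subfamilies were also summed. Of windows of 76 bases, the read length, 47.1% in Ces3a and 39.9% in Ces3b matched the other of this pair with at most 2 mismatches. The share was 45.8% in Ces2c, mostly with the pseudogene Ces2d-ps, and 26.2% in Ces1c, mostly with Ces1b. It was 7.9% or less in the other 6, counted among carboxylesterase genes. Outside these, 276 of 1885 windows of Ces2a were identical in Gm7208, and 262 of 1895 of Ces2c in Gm6831 or Gm8798. In each liver and kidney, Gm7208 was at or under 0.07 TPM, Gm6831 at or under 0.20 and Gm8798 at or under 2.20. Ces2d-ps was at or under 0.89 TPM in each liver and kidney, and single values of Ces3a and Ces3b are the least certain. In Liv the Ces1 genes summed to 2745 ± 302 TPM in GC_WT, 3159 ± 158 in FL_WT, 1866 ± 158 in GC_KO and 2207 ± 488 in FL_KO. The Ces2 genes summed to 413 ± 39.8, 288 ± 44.2, 280.5 ± 25.7 and 202 ± 23.8, and Ces3a with Ces3b to 1566 ± 79.6, 1732 ± 94.3, 1751 ± 119 and 1972 ± 139.9. The Ces3 sum differed between FL_KO and GC_KO by 0.17 on the log2 scale in TPM and by 0.02 in counts scaled to the library (CPM). The mean of the Ces2 sum was lower in FL than in GC and in KO than in WT livers. In TPM, KO livers stood at 68.0% of WT on the ground for Ces1 and for Ces2, without overlap. In CPM they stood at 66.9% and 67.9%. There the Ces2 sums overlapped, with 402 as the lowest in GC_WT and 416 as the highest in GC_KO livers. In Kid the Ces2 sum was 275 ± 20.8 and 276 ± 13.8 TPM in GC_WT and FL_WT against 153 ± 5.46 and 150.3 ± 7.27 in GC_KO and FL_KO, and the Ces1 sum was 963 ± 61.2, 1111 ± 91.8, 828 ± 81.9 and 1106 ± 125. A transcript of uncertain coding status, Gm45909, lies in Ces1d on the same strand, and Gm45724 lies in Ces3a on the other strand. The strand setting of the counting was not given in the sources used here.

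Of the other carboxylesterase genes, Ces1b followed Ces1g most closely. It had 52.0 to 92.2 TPM in GC_WT and 48.5 to 65.5 in FL_WT livers against 2.03 to 5.76 in GC_KO and 2.56 to 4.03 in FL_KO. The fold changes were −4.003 ± 0.19 (adjusted p = 5.05e-12) and −4.16 ± 0.21 (adjusted p = 1.49e-11). Of 9 other genes, 4 were tested in Liv. Between genotypes, 2.64% and 3.65% of all genes were called there in GC and FL mice. Ces2b was also called there, between FL_KO and GC_KO, with at most 0.06 TPM against 0.31 to 2.16, where 3.34% of all genes were called. In GC_KO against GC_WT kidneys Ces2b was lower, at −0.73 ± 0.17 (adjusted p = 0.0452), and Ces2g higher, at 0.86 ± 0.17 (adjusted p = 0.0209). Of all genes, 1.61% were called in that kidney comparison. Ces2g was lower in FL_KO than in GC_KO eWAT, at −0.73 ± 0.21, where 7.71% of all genes were called. It was higher with flight in Thy, at 0.52 ± 0.17 in WT and 0.78 ± 0.17 in KO mice, where 22.8% and 38.2% were called. Ces2g was called in 3 tissues, Ces2b in 2 and Ces1b in 1.

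A list of 16 other lipid and ester hydrolases was read beside the Ces members. Of 15 tested in Liv, 1 was lower and 0 higher in KO mice in either setting, where 2.64% and 3.65% of all genes were called. That gene was Ephx1, microsomal epoxide hydrolase and a known Nrf2 target, at −1.68 ± 0.11 (adjusted p = 5.1e-10) and −1.46 ± 0.12 (adjusted p = 1.29e-08). With flight, 3 rose and 1 fell in WT livers and 3 rose in KO livers, against 3.45% and 3.34% of all genes called. Those that rose in both were the monoglyceride lipase Mgll, at 0.51 ± 0.10 and 0.55 ± 0.11, hepatic lipase Lipc, at 0.43 ± 0.09 and 0.54 ± 0.10, and paraoxonase Pon1, at 0.46 ± 0.10 and 0.43 ± 0.11. Lipoprotein lipase Lpl fell in WT mice, by 1.36 ± 0.24 on the log2 scale. In iBAT, 5 of 14 were lower and 0 higher in FL_KO than in FL_WT mice, and 2 were lower in GC_KO than in GC_WT mice, against 1.5% and 2.14% of all genes called. In eWAT, 3 of 15 were lower in GC_KO than in GC_WT mice (2.74% of all genes called), and in Kid 1 of 12, Mgll, was higher, at 0.58 ± 0.10 (1.61% called). With flight, 2 rose and 5 fell of 15 in the eWAT of WT mice, where 13.4% of all genes were called, and 1 rose and 9 fell of 14 in the iBAT of KO mice, where 33.5% were called.

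Of 7 factors known to regulate esterase genes, Nr1i3, the constitutive androstane receptor, was the one called in Liv. It had 122.97 to 203 TPM in GC_WT livers, 181 to 253 in FL_WT, 32.4 to 61.1 in GC_KO and 54.0 to 103 in FL_KO, without overlap between genotypes. Nr1i3 differed by −1.96 ± 0.19 (adjusted p = 2.79e-07) and −1.48 ± 0.20 (adjusted p = 4.87e-05), and in KO mice flight went with 0.79 ± 0.20 (adjusted p = 0.0265). Of all genes in Liv, 2.64%, 3.65% and 3.34% were called in these comparisons. Of 5 factors tested in eWAT, Rxra was lower with flight in both genotypes, at −0.18 in each, where 13.4% and 7.71% of all genes were called. In Kid, 0 of 6 factors were called. In iBAT, 2 of 3 factors tested, Ppara (1.02) and Rxra (0.29), were higher in FL_KO than in GC_KO mice, where 33.5% of all genes were called. In Thy, Rxra was higher with flight in both genotypes, at 0.31 and 0.45, and Ahr in KO mice, at 0.56. These were the 2 factors tested there, where 22.8% and 38.2% of all genes were called in WT and KO mice.

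Genes most like each member were ranked by Pearson's r of log2(TPM + 1) over the mice of its highest tissue. These mice span the 4 groups, so that a group difference shared by a pair of genes raises r, and r is given as a description. Over 23 livers, Ces1g was most like Ugt1a6a (r = 0.975), Ces1b (0.971) and Slc1a2 (0.968), and Ces1e most like Ces1f (0.93), Ces1g (0.872) and Ces1d (0.869). Ces2e was most like Ces2c (0.893), Cyp2a5 (0.88) and Gm13775 (0.877). Over 12 kidneys, Ces2c was most like Ugt1a7c (0.991), Slc22a12 (0.988) and Gsta3 (0.986), and Ces1f most like Dnajb2 (0.943), Acot12 (0.934) and 4833439L19Rik (0.92). Over 23 samples of eWAT, Ces1d was most like Adipoq (0.868), Hibch (0.846) and Aldh5a1 (0.84). In liver, Ces1c was most like Rpl13a (0.944), Acp5 (0.936) and Pink1 (0.904), and Ces2a most like Otc (0.873), Aldh1l1 (0.87) and Mpv17l (0.847). Ces3a was most like Cpox (0.878), Il1rap (0.856) and Zmat2 (0.855), and Ces3b most like Selenbp2 (0.836), Ugt2b38 (0.832) and C8b (0.822). Among the members themselves, Ces1e and Ces1f were the most alike, and Ces2a and Ces3a the most opposed, at −0.863.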

How the data were processed

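RNA of 9 tissues had been sequenced by the authors as single reads of 76 bases, from strand-specific poly(A) libraries, or in thymus from total RNA depleted of ribosomal RNA. By the submitters' processing notes and the study's methods, reads were aligned to mm10 with STAR 2.6.1 and quantified with RSEM 1.3.1. The strand setting of the counting was not given in the sources used here. The deposited table gives expected counts, TPM and FPKM for 54752 genes in 192 samples. TPM values, as deposited by the authors, are scaled by transcript length and to the sum of each sample, and served for levels and sums. The deposited expected counts were rounded to whole numbers for the tests, and the 192 FPKM columns were not used. Samples were grouped by the genotype, flight and tissue given in their labels.

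Each tissue was fitted on its own in edgeR 4.0.16 (R 4.3.3) by the quasi-likelihood test, with all 4 groups, filterByExpr, TMM factors and Benjamini-Hochberg adjustment over all genes tested. The interaction is the flight effect in KO mice minus that in WT mice. The results were recomputed with DESeq2 1.42.0, with limma 3.58.1 of log2(TPM + 1) and log2(TPM + 0.1) of genes with a mean of at least 5 TPM in a group, with RLE factors, with no filter, with mouse 04, with a model of the 2 groups alone, with a block for the number of the mouse, with a block for 2 ranges of library numbers in temporal bone, and with each mouse left out in groups of 2 to 5. Leaving out GC_WT mouse 08 in liver and brown fat was added after the data had been seen. The scripts were tested on simulated data.

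Samples of a number were taken as paired where the deviations of all pairs from their group means correlated above 0.1. This held in the livers of KO mice, with r of 0.22 to 0.37 over 5 pairs, although these are different animals. The block changed no call of a member there. In the mandibles of KO mice r was also above 0.1, at 0.104 and 0.193, but over only 2 pairs, and these were not taken as paired.

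All 10 members are described, other carboxylesterases and regulators were named where called, at most 4 other hydrolases were named per comparison by the smallest adjusted p, and 3 genes most like each member by r among genes with a mean of at least 5 TPM. Members, lists and tests were chosen with earlier results of these data known. Sequences are from RefSeq (GRCm38.p6) and GENCODE vM21. GRCm38 and mm10 are the same assembly. Read sharing was counted over windows of 76 bases with at most 2 mismatches. The 13110700 to 16308200 counts per library, or 8007520 to 10564700 counts in thymus, set the precision of low levels: a value under 1 TPM rests on few reads.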

Additional observations from a re-analysis of the deposited data

Results flagged for a closer look

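In 63 groups of 4 to 10 mice with a mean of at least 5 TPM, 8 held a mouse that stood apart from the rest by Dixon's criterion at the 95% level, where chance gives about 1 in 20. In the livers of GC_WT mice, mouse 08 had 413 TPM of Ces1f against 289 to 314 in the others, and 19.6 TPM of Ces2c against 59.5 to 76.2. The same mouse had 81.9 TPM of Ces1f in iBAT against 30.6 to 45.6. Ces3a in liver was low in GC_WT mouse 05, at 1175 TPM against 1260 to 1297, and in FL_WT mouse 05, at 1378 TPM against 1530 to 1576, and these are different animals. Ces2e in the liver of GC_KO mouse 11 was 83.9 TPM against 69.2 to 74.0. Ces1d was 497 TPM in the iBAT of GC_KO mouse 01 against 419 to 441, and 105 TPM in the temporal bone of FL_WT mouse 03 against 48.3 to 69.0.

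Ces1g in kidney had flight effects that differed between the genotypes by 1.90 on the log2 scale, called by DESeq2 and by edgeR with no filter on low counts, but not by edgeR with the filter or by limma. It was −1.54 ± 0.26 in WT and 0.36 ± 0.29 in KO mice, with 3 mice per group.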

How the results depend on the processing

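The counts of called pairs under the alternatives stayed within 1.5 times the main count in 39 instances and moved further in the others: 3 pairs in place of 5 for FL_KO against GC_KO in fits of the 2 groups alone, and 1 in place of 0 for the interaction by DESeq2 and with no filter. Mice were left out in turn only in groups of 2 to 5, and GC_WT mouse 08 also in liver and brown fat. This gave 3 to 5 pairs for FL_KO against GC_KO, with 3 without FL_KO mouse 09 or 12. It gave 10 to 11 for FL_KO against FL_WT and 0 for the interaction. The counts were 4 to 5 for FL_WT against GC_WT and 11 to 12 for GC_KO against GC_WT. In these last comparisons, calls in white fat and thymus could not move. Those in liver and brown fat could move only without GC_WT mouse 08. The last ranges are therefore narrow by design and say little about stability. Fits of the 2 groups alone gave 7 pairs for FL_KO against FL_WT. Ces1d in iBAT for FL_KO against GC_KO, which was not called, turned from 0.024 to −0.014 without FL_KO mouse 02 and −0.0083 without mouse 09, within a range of −0.014 to 0.083. With the replicate number as a block, 4 pairs were called for flight in WT mice, 4 in KO mice, where Ces1f in thymus was lost (adjusted p = 0.0869), and 0 for the interaction. In CPM, the summed Ces1 genes in iBAT stood at 0.14 and 0.02 for flight in WT and KO mice, against 0.45 for both in TPM, and the Ces2 sum in kidney at −0.11 for flight in KO mice. Without ribosomal protein, mitochondrial and small RNA genes, Ces1d in GC_WT mice was 955 TPM in iBAT, above the 749 of liver. Depth limits statements on members under 1 TPM, and intervals between mice cover no difference between the date and site of flight and ground groups.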
